A study of Homo sapiens with 4 samples.

Results

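RAD21 binding was described at 10 genes of the WNT pathway in HCT116 cells, a human colorectal carcinoma cell line. The genes were APC, CTNNB1, AXIN2, LGR5, ASCL2, TCF7L2, NKD1, RNF43, ZNRF3 and LEF1, chosen by name. A RAD21 peak was assigned to a gene when its summit, the position of highest enrichment, lay in the gene body or within 20 kb of it, on GRCh38 with the GENCODE release 44 annotation. This gave 38 of the 56853 peaks of the list, or 0.0668%, in 1463.3 kb of sequence. RAD21 ChIP-seq was analysed from 1 library, that of untreated wild-type cells. The other 3 libraries of the series were not analysed here. They came from HCT116_RAD21_AID, a clone with the mAID degron in the RAD21 gene and expression of the OsTIR1 ubiquitin ligase, without treatment (RAD21 ChIP) or after 6 h with the auxins alpha-naphthaleneacetic acid and indole-3-acetic acid at 500 μM each (RAD21 ChIP and Input). With a single library there was no spread between replicates, and no difference was tested.

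In the canonical WNT pathway, a destruction complex built on APC and axin proteins marks β-catenin, the product of CTNNB1, for degradation. WNT ligands at the membrane stop this, and β-catenin then enters the nucleus and activates genes with the TCF and LEF transcription factors. In the intestinal epithelium the pathway maintains the stem cells of the crypt, and most colorectal tumours carry a mutation that keeps it active. HCT116 cells are known for an activating mutation of CTNNB1 with intact APC. RAD21 is a subunit of cohesin, the ring complex that holds sister chromatids together and extrudes chromatin loops. Cohesin is often halted at sites bound by CTCF, and loops tend to form between CTCF sites that face each other.

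The highest RAD21 summits of APC, AXIN2, LGR5, ZNRF3 and NKD1 lay beside a match to the CTCF consensus. These matches are shown, with those at the NKD1 promoter and in both flanks of LEF1, which lie on opposite strands at the sides of a gene. Each of the following runs of 30 bases is written 5′ to 3′ in the direction in which the consensus matched, with the bases aligned to the consensus in capitals, a mismatched base included. The matches in AXIN2, in ZNRF3 and upstream of LEF1 were exact:
AXIN2 intron, chr17:65556563-65556592, minus strand: gttctccaaCCACCAGGGGGCgcgcttgtg
ZNRF3 intron, chr22:29040854-29040883, minus strand: tccactggcCCACTAGAGGGCagtctcacc
LEF1 upstream flank, chr4:108181894-108181923, minus strand: tctgcatgaCCAGCAGGTGGCcctgaaatt
The matches at the following summits differed from the consensus at 1 base, at position 12 of the consensus in APC and LGR5, at position 5 and position 1 in NKD1, and at position 8 in LEF1, counted from its 5′ end:
APC intron, chr5:112757766-112757795, minus strand: cctcttttgCCACTAGATGGTactactaca
LGR5 intron, chr12:71551718-71551747, minus strand: acctaaaagCCAGCAGAGGGAgtgcaatac
NKD1 promoter, chr16:50547500-50547529, plus strand: acagtgtccCCAGAAGGGGGCaggcgttct
NKD1 downstream flank, chr16:50665543-50665572, minus strand: aaaaagtagACAGCAGATGGCgctgccgcc
LEF1 downstream flank, chr4:108043115-108043144, plus strand: tggattctgCCACTAGCTGGCacaatgtta

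The highest summits within 1 kb of a canonical transcript start were those of RNF43 and CTNNB1, and neither had a match to the CTCF consensus at up to 1 mismatch within 50 bp. The stretch from 50 bases before to 50 bases after each summit is given on the plus strand, in lower case because no match was found:
RNF43 promoter, chr17:58417685-58417785: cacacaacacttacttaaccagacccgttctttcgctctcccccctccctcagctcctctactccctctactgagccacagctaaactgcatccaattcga
CTNNB1 promoter, chr3:41199196-41199296: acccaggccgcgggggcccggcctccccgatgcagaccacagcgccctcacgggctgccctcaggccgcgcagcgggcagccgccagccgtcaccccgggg

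RAD21 summits were found at 9 of the 10 WNT genes, and ASCL2 had none. Among all 20033 protein-coding genes, 88.9% had a summit in the same kind of window. A summit lay in the gene body of 8 of the 10 genes, against 60.3% of protein-coding genes, and within 1 kb of an annotated transcript start of 7 of the 10, against 43.8%. These windows were larger than most, since the WNT genes had a median length of 111.1 kb and 8 annotated starts, and protein-coding genes a median of 27.5 kb and 5 starts. Among the 5724 protein-coding genes of 50 to 250 kb, 52.6% had a promoter summit and the median number of summits was 3, with quartiles of 2 and 5. The 8 WNT genes of that size had a median of 3.5 summits, and 6 of them had a promoter summit. Pooled, the windows held 2.60 summits per 100 kb, against 1.92 over the genome outside assembly gaps. Gene by gene, and without matching for length, the median was 1.91 per 100 kb for the 10 genes and 2.91 for protein-coding genes.

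**Figure D1:**
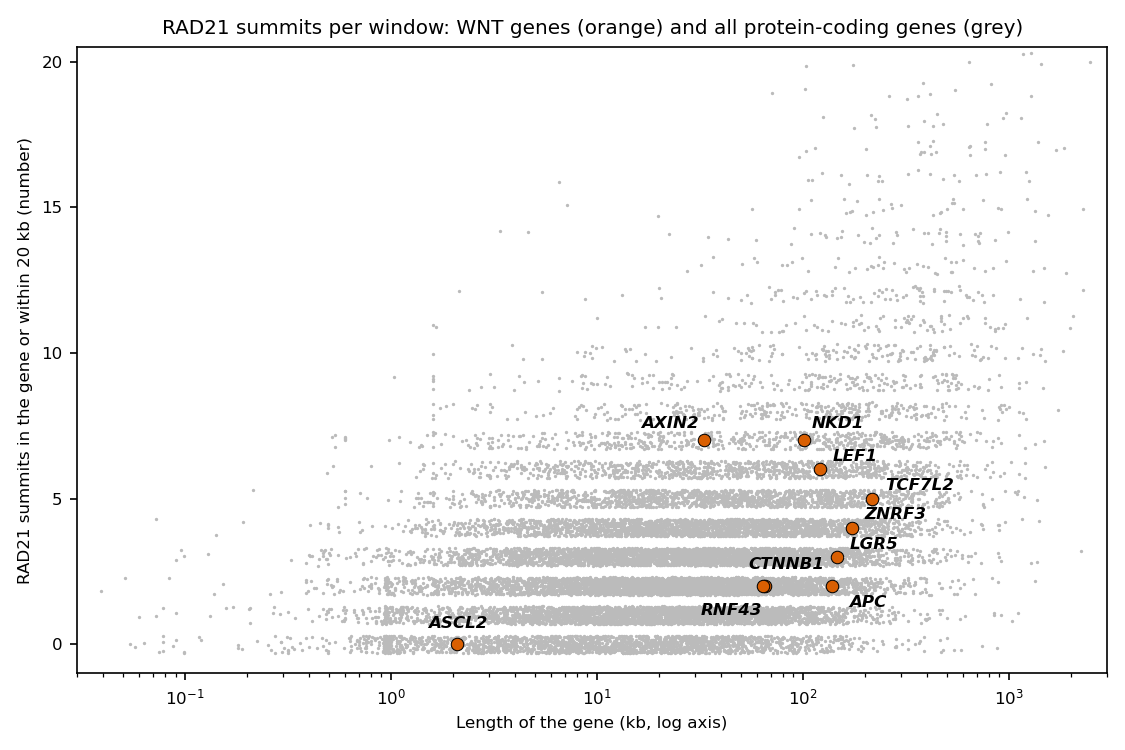
Number of RAD21 summits in the gene body and 20 kb flanks (vertical axis) against gene length in kb (log horizontal axis), with all protein-coding genes in grey, spread slightly in the vertical direction, and the 10 WNT genes in orange. AXIN2 and NKD1 had 7 summits each, and 91.5% of all protein-coding genes had fewer. ASCL2 had 0. The 39 genes with more than 20 summits lie above the plotted range.

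The height of a peak is given as the fold enrichment, the ratio of ChIP fragments to the local background at the summit after 1 is added to both. Its 95% interval is the exact Poisson interval of the fragments recovered at the summit, with the background held fixed, and covers counting error only. The 38 summits had a median fold enrichment of 3.90, with quartiles of 3.02 and 7.86, against 5.58 with quartiles of 3.46 and 10.7 for all peaks. With q of at most 0.01, the median of the remaining 35 WNT summits was 5.36, and the list median under this filter is not given here. The 38 summits held 15 to 296 fragments with a median of 37, and the median over the list was 48. Of the 38 summits, 6 in 5 genes reached a fold enrichment of 10, or 15.8% (95% Wilson interval 7.44 to 30.4), and over the list 27.2% did. That share of the list lies inside the interval of the WNT genes. A Wilson interval, here and below, treats the summits as independent, although AXIN2 and NKD1 held 7 each.

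**Figure D2:**
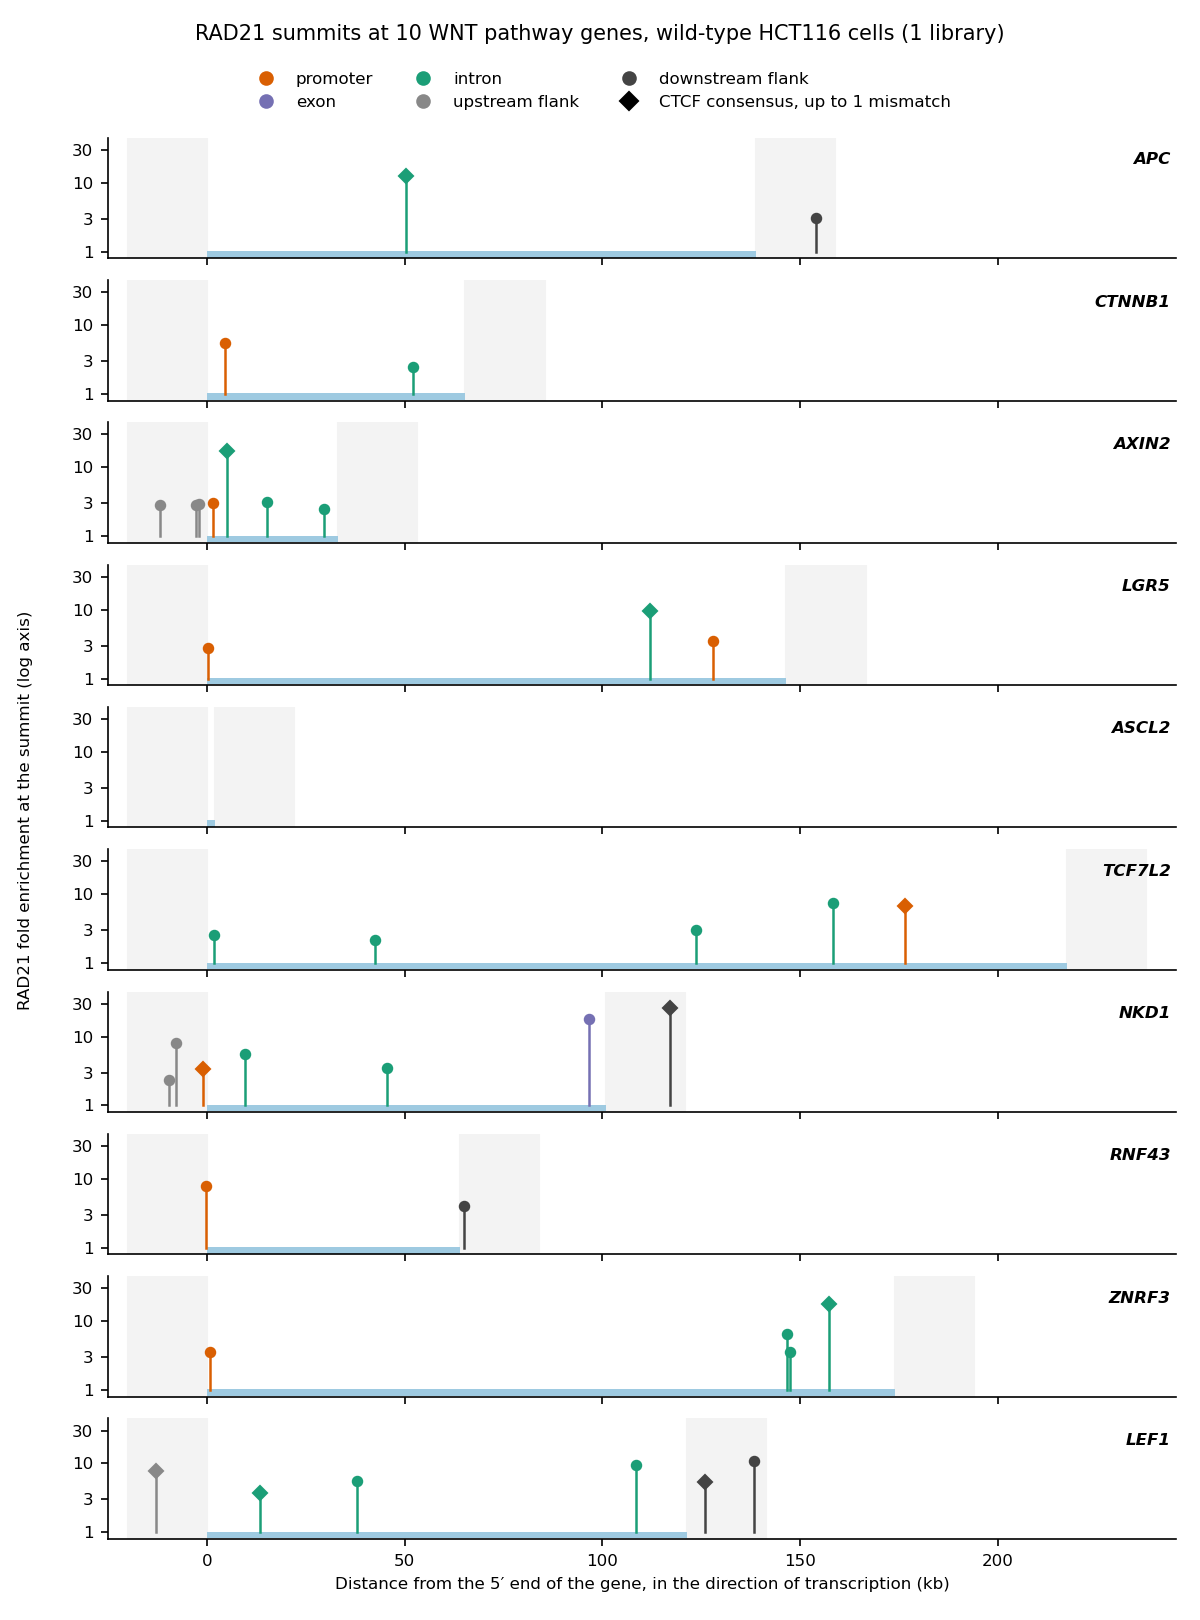
RAD21 summits at the 10 WNT genes, 1 panel for each gene, with the distance from the 5′ end of the gene in the direction of transcription in kb (horizontal axis) and the fold enrichment (log vertical axis). The blue bar is the gene body, grey marks the 20 kb flanks and diamonds mark summits with a CTCF consensus match at up to 1 mismatch; NKD1 carries the highest summit, 26.0, beyond its 3′ end, and the panel of ASCL2 holds none.

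Both scaffold genes of the destruction complex carried their highest summit in the second intron and not at the promoter. APC (chr5:112707518-112846239, plus strand), the scaffold that is lost in most colorectal tumours, had 2 summits. The higher was in intron 2 of the canonical transcript (chr5:112757479-112757961), 19909 bp past the canonical start and 2903 bp from the nearest annotated start. It held 102 fragments over a background of 7.15, with a fold enrichment of 12.6 (10.3 to 15.3). No summit lay within 1 kb of any of the 8 annotated starts of APC. Upstream of this intronic peak, the nearest summit was 102314 bp below the gene, so that 152590 bp, with the canonical promoter among them, held none. The other summit of APC was in the downstream flank, 15285 bp past the gene end, at the start of SRP19, a subunit gene of the signal recognition particle. There the fold enrichment was 3.04 (2.06 to 4.35) with 28 fragments.

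AXIN2 (chr17:65528563-65561648, minus strand), a limiting scaffold that WNT signalling itself induces, was the most densely occupied of the 10 genes, with 7 summits or 9.58 per 100 kb. Of these, the one in intron 2 stood out by height. It (chr17:65556152-65557025) was 5060 bp from the start, with 212 fragments over a background of 11.4 and a fold enrichment of 17.2 (15.0 to 19.7). The other 6 summits of AXIN2 were low and alike, with fold enrichments of 2.45 to 3.15. Among them was the promoter summit (chr17:65559516-65560314), which held 28 fragments with a fold enrichment of 3.08 (2.08 to 4.40). It lay 109 bp from an alternative start and 1461 bp from the canonical one. Another 3 lay 1885, 2840 and 11734 bp upstream of the gene, the highest at 2.97 (1.98 to 4.30). A readthrough gene, ENSG00000266076, spans all of these summits but the one nearest the 3′ end of AXIN2, so they cannot be given to AXIN2 alone.

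CTNNB1 (chr3:41194741-41260096, plus strand), which encodes the effector β-catenin, had its highest summit at its promoter. The peak (chr3:41198723-41199733) was the widest of the 38, at 1011 bp, and its summit was 259 bp before the canonical start, in sequence of 81.2% GC. It held 46 fragments over a background of 7.58, with a fold enrichment of 5.48 (4.04 to 7.27), close to the list median. The second summit of CTNNB1 was weak, at 2.46 (1.47 to 3.91) with 16 fragments. It lay past the end of the canonical transcript, in an intron of a longer annotated transcript and also within ULK4, a pseudokinase gene on the other strand. The next summits outside the gene were 98839 bp below it and 191032 bp above it. With flanks of 50 kb CTNNB1 still had 2 summits.

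The 3 transcription factor genes differed in where RAD21 was found. TCF7L2 (chr10:112950247-113167678, plus strand), whose product is the main partner of β-catenin in intestinal cells, had 5 summits, all inside the gene. The 3 nearest to the 5′ end were low, at 2.60 (1.88 to 3.51) in intron 3, 2.19 (1.39 to 3.29) in intron 4 and 3.01 (2.13 to 4.16) in intron 5. The summit in intron 4 was the lowest of the 38. Higher values came in the 3′ part, with 79 fragments and 7.48 (5.94 to 9.29) in intron 5 (chr10:113108451-113108862), and 68 fragments and 6.71 (5.23 to 8.48) at a promoter (chr10:113126522-113126864). This promoter belongs to an alternative start, 55 bp away and 176498 bp past the canonical start, which itself had no summit within 1 kb. The intervals of these 2 summits overlap each other and lie above those of the 3 others. The local background at the 5 summits was 1.53 to 2.57 times the floor of 5.90 fragments, the lowest background that the peak caller used, and the median over the list was 1.14 times. The part of this background in the fold enrichment was not tested.

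LEF1 (chr4:108047545-108168956, minus strand), a TCF family gene that is itself raised by WNT signalling in colon cancer, had 6 summits and none at a promoter. The nearest to the canonical start was 12978 bp upstream (chr4:108181727-108182066), inside the antisense RNA gene LEF1-AS1, with 52 fragments and a fold enrichment of 7.68 (5.77 to 10.0). The 3 intronic summits were at 3.77 (2.49 to 5.49) and 5.60 (4.14 to 7.41) in intron 3, with overlapping intervals, and at 9.38 (7.76 to 11.2) in intron 11 (chr4:108060112-108060565). The interval of the last lies above those of the others. In the downstream flank the values were 5.36 (3.80 to 7.37) at 4426 bp past the end and 11.0 (8.69 to 13.8) at 16987 bp past it (chr4:108030140-108030757). The latter, with 75 fragments, was the highest of LEF1 and lay within HADH, a gene of mitochondrial fatty acid oxidation.

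ASCL2 (chr11:2268498-2270588, minus strand), the transcription factor that specifies crypt stem cells, is the shortest of the 10 genes, at 2.09 kb with a single annotated start. No summit lay in its window of 42.1 kb. Of the 2780 protein-coding genes under 5 kb, 24.8% had none, against 11.1% of all. The nearest summit was just outside the limit, 21282 bp upstream, with 21 fragments and a fold enrichment of 2.31 (1.47 to 3.48). A second was 23574 bp upstream, at 3.91 (2.61 to 5.67). On the downstream side the nearest summits were 65883 bp away at 2.90 (1.80 to 4.44) and 71088 bp away at 48.0 (43.6 to 52.8) with 421 fragments. This last peak exceeded every peak in the windows of the 10 genes. The whole stretch without a summit around ASCL2 was 89255 bp. Inside the limit, the outermost summits of the other genes were those of LEF1 at 16987 bp and NKD1 at 16278 bp.

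The 3 genes of receptor function all had a promoter summit, with RNF43 the highest and overlapping intervals for LGR5 and ZNRF3. LGR5 (chr12:71439798-71586310, plus strand), the R-spondin receptor that marks crypt stem cells, had 3 summits. At its 5′ end, in exon 1 and 205 bp past the start (chr12:71439806-71440101), there were 19 fragments over a background of 6.10, a fold enrichment of 2.82 (1.75 to 4.32). TSPAN8, a tetraspanin gene on the other strand, also spans this position. The highest summit of LGR5 was in intron 4 (chr12:71551456-71551961), 111926 bp past the start, with 64 fragments and 9.42 (7.29 to 12.0), an interval above that of the 5′ promoter. Another was 520 bp from an alternative start inside the gene (chr12:71567669-71567896), at 3.48 (2.26 to 5.15) with 23 fragments. Between the 5′ promoter and intron 4, 111721 bp held no summit.

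RNF43 (chr17:58353676-58417595, minus strand) and ZNRF3 (chr22:28883572-29057488, plus strand) encode related ubiquitin ligases that remove WNT receptors from the membrane, and RAD21 was found in different places at the 2 genes. RNF43 had the highest promoter summit of the 10 genes (chr17:58417513-58417935), 140 bp upstream of the gene, with 97 fragments over a background of 11.4 and a fold enrichment of 7.93 (6.44 to 9.65). Its gene body had no summit. The other summit of RNF43 was 1203 bp past the gene end, at the start of SUPT4H1, which encodes a transcription elongation factor, at 4.02 (3.11 to 5.12) with 64 fragments. A readthrough gene, ENSG00000285897, starts within 1 kb of the promoter summit. The backgrounds of the 2 summits were 1.93 and 2.57 times the floor, among the highest of the 38, and their part in the values was not tested.

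ZNRF3 had 4 summits. Its promoter summit (chr22:28884284-28884627), in intron 1 and 831 bp past the start, held 24 fragments with a fold enrichment of 3.51 (2.30 to 5.15). This interval lies below that of the RNF43 promoter. The next 145925 bp of the gene held no summit. The remaining 3 were grouped in intron 2 within 10533 bp, at 6.57 (4.99 to 8.49), 3.57 (2.43 to 5.07) and 17.8 (15.1 to 20.8). The first and second of these were 713 bp apart and lay within the antisense RNA gene ZNRF3-AS1. The highest (chr22:29040447-29041124), with 155 fragments over a background of 7.79, coincided with the exact CTCF match printed above.

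NKD1 (chr16:50548396-50649249, plus strand), an inhibitor of dishevelled that WNT signalling induces, carried the highest summit of the 10 genes, and its 2 highest summits were at and beyond its 3′ end. Its 7 summits spanned both flanks. Upstream of the gene the values were 2.32 (1.36 to 3.73) at 9647 bp and 8.12 (6.15 to 10.5) at 7802 bp, both in the lncRNA gene ENSG00000260573. The promoter summit (chr16:50547422-50547701), 880 bp before the start, held 34 fragments over a background of 9.47, at 3.34 (2.34 to 4.63). Intron 3 had summits of 5.49 (3.93 to 7.48) and 3.48 (2.26 to 5.15). In the 3′ untranslated part of exon 10 (chr16:50644553-50645279), 121 fragments gave 17.7 (14.7 to 21.1). The highest summit of all 10 genes was 16278 bp past the end of NKD1 (chr16:50665015-50665916), at the start of the lncRNA gene ENSG00000260249, with 296 fragments over a background of 10.4 and a fold enrichment of 26.0 (23.1 to 29.1). Of the peaks in the list, 94.1% were lower.

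**Figure D3:**
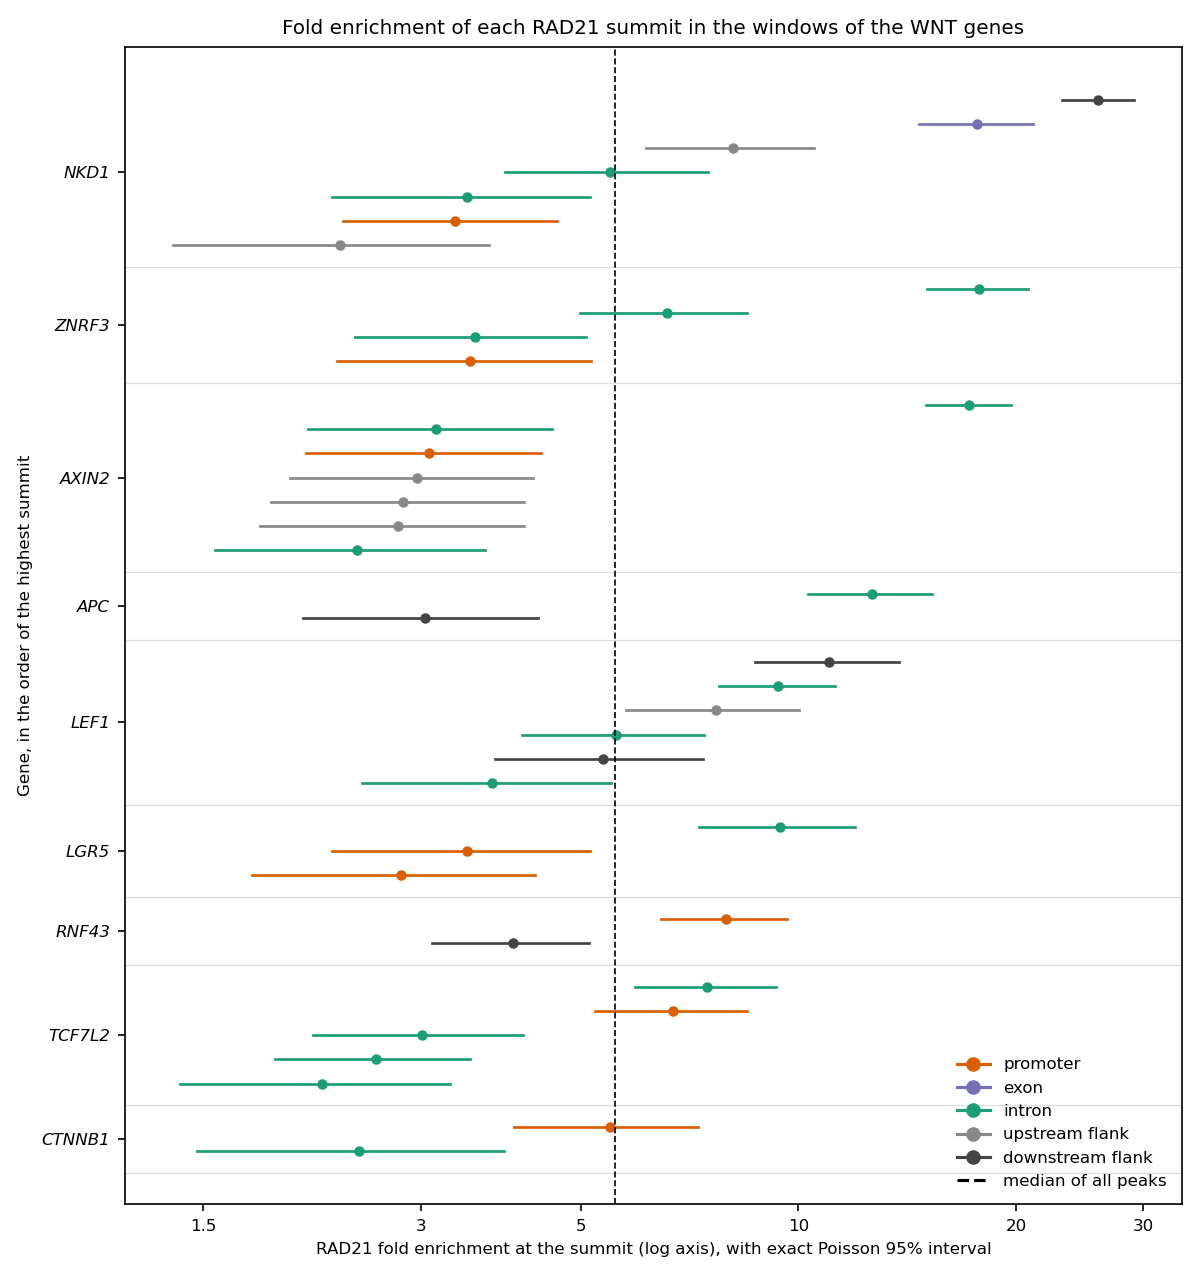
Fold enrichment of each RAD21 summit (log axis) with its exact Poisson 95% interval, which covers counting error only, grouped by WNT gene in order of the highest summit, with the median of all peaks, 5.58, as a dashed line. The highest interval of NKD1, 23.1 to 29.1, does not overlap any other interval, while those of neighbouring genes from ZNRF3 to CTNNB1 overlap.

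Ordered by the highest summit, the genes ran NKD1 at 26.0, ZNRF3 at 17.8, AXIN2 at 17.2, APC at 12.6, LEF1 at 11.0, LGR5 at 9.42, RNF43 at 7.93, TCF7L2 at 7.48 and CTNNB1 at 5.48. The interval of NKD1 lies above that of ZNRF3. From ZNRF3 to CTNNB1, each gene's interval overlaps that of the next, and the order of these neighbours was not tested. By the number of fragments above the background, NKD1 remained first and CTNNB1 the lowest of the 9, and the other 7 genes moved by 1 or 2 places. All highest summits except those of RNF43 and CTNNB1 lay outside the promoters of their own genes. That of NKD1 was at the start of an lncRNA gene. Of the 56853 peaks of the list, 10220 lay within 1 kb of a protein-coding start, which counts every peak and the starts of any gene. The share of protein-coding genes with their highest summit outside their own promoter is not given here.

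The highest promoter summit was below the highest intronic and flanking ones. The 8 promoter summits had a median fold enrichment of 3.49, from 2.82 to 7.93, and none reached 10. The 18 intronic summits, in 8 genes, had a median of 4.63, from 2.19 to 17.8, and 3 of them reached 10, those of ZNRF3, AXIN2 and APC. In the downstream flank, 5 summits of 4 genes had a median of 5.36, from 3.04 to 26.0. The 6 of the upstream flank, in 3 genes, had a median of 2.90, from 2.32 to 8.12. The single summit in the exon class was that of NKD1. Of the 11 flanking summits, 10 were inside another annotated gene, lncRNA genes included. The same share over the list is not given here.

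Over the list, the 10220 peaks within 1 kb of any protein-coding start had a median fold enrichment of 3.91, and the other peaks had 6.05. By this definition, which adds the summits at the SRP19 and SUPT4H1 starts, 10 summits of the WNT windows had a median of 3.49 and the other 28 had 5.43. Among promoter-bound protein-coding genes, whose median highest promoter value was 4.21, 74.3% were lower than RNF43, 69.4% lower than TCF7L2 and 62.3% lower than CTNNB1. The shares were 35.5% for ZNRF3, 34.0% for LGR5, 30.6% for NKD1 and 22.7% for AXIN2. These 7 genes thus fell on both sides of the median. With the canonical start alone, 5 of the 10 genes had a promoter summit, against 34.1% of protein-coding genes, and AXIN2 and TCF7L2 dropped out.

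An exact match to the CTCF consensus lay within 50 bp of 3 of the 38 summits, or 7.89% (95% Wilson interval 2.72 to 20.8), against 11.4% of all peaks and 0.0510% of control windows 5 kb to either side of the peaks. At up to 1 mismatch, 10 of 38 summits had one, or 26.3% (15.0 to 42.0), against 38.5% of peaks and 0.762% of control windows. Both strands were searched, and a match describes the letters and not bound CTCF. Matches were more frequent at high summits. They were found at 4 of the 6 summits of at least 10, 4 of the 12 from 5 to 10 and 2 of the 20 under 5, where the list had 62.4% at 10 or more and 17.8% under 5. Among the promoter summits, 2 of 8 had a match, those of NKD1 and the internal start of TCF7L2. Over the list, 20.6% of peaks within 1 kb of a protein-coding start had one, against 42.4% of the other peaks. The centre of the match was at a median distance of 10.5 bp from the summit and at most 32.5 bp. The high summits without a match were the one in the last exon of NKD1 and the one of LEF1 in HADH.

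NKD1 and LEF1 were the only genes with more than 1 match, and at both, matches faced each other across the gene. The share of protein-coding genes with such facing matches is not given here. NKD1 had a plus-strand match at its promoter and a minus-strand match at the downstream summit of 26.0, as printed above. LEF1 had plus-strand matches at 5.36 in the downstream flank and at 3.77 in intron 3, and a minus-strand match at 7.68 in the upstream flank. The single matches of APC, AXIN2, LGR5, ZNRF3 and TCF7L2 were all on the minus strand. Contacts between these sites were not measured in the file.

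The TCF/LEF sequence CTTTGAT, searched on both strands within 150 bp, occurred at 1 of the 38 summits, or 2.63% (0.466 to 13.5). This was the summit of 3.48 in intron 3 of NKD1, 45562 bp past the start. The sequence occurred at 3.25% of all peaks and in 4.17% of the control windows. Within 250 bp the shares were 7.89% of the 38 summits and 5.89% of all peaks, the former inside the interval above. In RefSeq promoter windows of 300 bp, it was present in 2.62% of 35116 and in none of the 9 windows found for CTNNB1, LEF1, APC, TCF7L2 and RNF43. Only 1 of these windows, at RNF43, contained a RAD21 summit.

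The 80 other genes of the pathway were taken from a fixed list by role. A summit in the window was found for 77 of 80, in the gene body for 59 and at a promoter for 52, with a median promoter value of 4.21 and a range of 2.31 to 62.8. The shares over all protein-coding genes were, as above, 88.9%, 60.3% and 43.8%. By role, and to be read against the last of these, a promoter summit was found at 8 of 9 destruction complex and kinase genes, 2 of 3 dishevelled genes, 11 of 14 receptor genes and 11 of 25 genes of ligands and their secretion. It was found at 7 of 9 nuclear factors, 6 of 12 inhibitors and 7 of 8 targets. The roles were not matched for gene length or number of annotated starts, which ran from 1 at AMER1 to 35 at CD44. Among protein-coding genes of 50 to 250 kb, the share with a promoter summit was 52.6%. Without any summit were WNT2 and WNT5A, both ligand genes, and FZD10, a receptor gene. The highest promoter values were those of the ligand gene WNT7A at 62.8 (57.0 to 68.9), the ephrin receptor and target gene EPHB3 at 55.4 (51.2 to 59.9) and the cyclin D1 gene CCND1 at 42.7 (38.4 to 47.3). Their intervals lie above that of every promoter summit of the 10 genes.

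**Figure D4:**
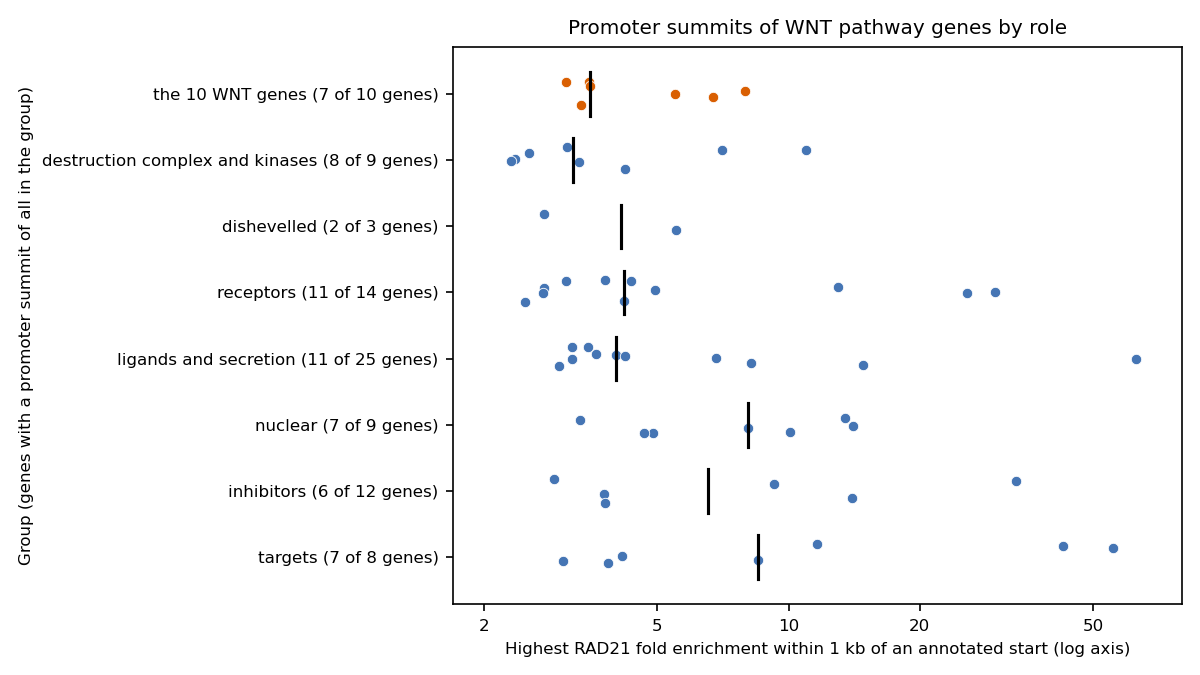
Highest promoter fold enrichment (log axis) of each WNT pathway gene with a promoter summit, by role, with the median of each role as a black line. The 7 promoter-bound genes of the main set sit between 3.08 and 7.93, and the other genes reach 62.8 at WNT7A.

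The depth behind these values was inferred at about 7.46e+07 ChIP fragments. This rests on the background floor, the effective genome size and the narrowest peak width, 222 bp, read as the fragment length. It was not checked against the number of sequenced reads. At the 38 summits the −log10 q ranged from 1.35 to 305.3, and 30 of them had a q of at most 1e-05. A peak width of 228 to 1011 bp, with a median of 406 bp, compared with a list median of 446 bp. The GC content within 50 bp of the summit was lowest in the intron of APC, at 34.7%, and highest at the promoters of CTNNB1 and TCF7L2, at 81.2% each.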

How the data were processed

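RAD21 ChIP-seq of wild-type HCT116 cells was analysed from the deposited peak list. According to the methods, the authors trimmed reads with Trimmomatic 0.39, aligned them with Bowtie2 2.5.3 to GRCh38, removed duplicates with Picard and called peaks with MACS2 2.2.9.1 against Input at a q-value threshold of 0.05. Which Input served as control is not given in the sources used here. The authors' list gives positions, summits, the fold enrichment (a ratio to local background), the −log10 p-value, the −log10 q-value and a score, which was not used. From the deposited fold and p-value, the ChIP fragments and local background of every summit were recovered with Python 3.11.15 and scipy 1.17.1. All but 14 of 56853 came out whole within 0.05. Of 3000 simulated peaks, 100% were recovered, but these were made with the same formulas, so this checks the calculation only.

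A summit within 1 kb of any annotated start of the gene was classed as promoter, otherwise as exon, intron or flank. The CTCF consensus was searched within 50 bp of the summit on both strands. All 10 genes were named, with each promoter peak and the highest of each class. Of the 80 other genes, those with the 3 highest promoter values and those without a summit were named. Genes and lists were chosen with earlier results of these data known. Alternatives covered the q threshold, flank, promoter definition, peak placement and sequence search.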

Additional observations from a re-analysis of the deposited data

How the results depend on the processing

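Of 57 recomputed values, 45 were counted as unchanged and 12 as moved, a count or median by a factor of over 1.5, a share by leaving the interval of the main share and a rank by any change of place. The number of summits was 30 to 38 with q of at most 0.01 or 1e-05, any overlap of the peak, or a flank of 10 kb, and rose to 59 with a flank of 50 kb, of which 4 fell to ASCL2. With the canonical start alone, promoter summits dropped from 8 to 5 and exon summits rose from 1 to 3. With q of at most 1e-05, summits of the upstream flank dropped from 6 to 2. The share with the CTCF consensus rose from 7.89% to 26.3% with 1 mismatch. The share with CTTTGAT was 2.63% within 150 bp and 7.89% within 250 bp. In ranking by fragments above background, 7 genes changed place. The cause of the last was not tested, and the others follow from the wider or stricter definition. The median fold enrichment was 5.36 with q of at most 0.01, 5.54 with q of at most 1e-05 and 5.49 without summits in another protein-coding gene, against 3.90. The median of all peaks under the same definitions is not given here. No paired analysis was possible because a single library was analysed. Intervals cover counting error at a fixed background, and summits with the fewest fragments have the widest intervals relative to their height.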

Other observations

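Paralogues of the WNT genes, named after their values were seen, are set beside them here. Among the R-spondin receptors, the highest promoter summit was 25.7 (22.2 to 29.5) at LGR6 and 2.73 (1.80 to 3.98) at LGR4. That of LGR5 was 3.48 (2.26 to 5.15), at an alternative start inside the gene, and its 5′ promoter had 2.82 (1.75 to 4.32). Of the TCF genes, TCF7L1 had a promoter summit of 14.1 (11.8 to 16.7) and TCF7 one of 4.88 (3.78 to 6.21). The interval of TCF7L1 lies above the 6.71 (5.23 to 8.48) of TCF7L2, which is at an alternative start 176498 bp past the canonical one. APC2 had a promoter summit of 10.96 (8.87 to 13.4), where APC had none. AXIN1 and NKD2 had no promoter summit, with highest values of 26.2 and 7.08 in their windows, while AXIN2 and NKD1 had promoter summits of 3.08 and 3.34.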
